A study of Mus musculus with 21 samples.

Results

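The 4 trachea tuft libraries were set against the 14 tuft libraries of small intestine (n = 3), colon (n = 4), gall bladder (n = 3) and thymus (n = 4), chosen by their titles, out of 21 libraries in the series. All mice were naive and of the strain C57BL6.Il25(Flare25/Flare25), which carries a fluorescent reporter at both alleles of Il25, so every group shares this modification. Live CD45-negative, EPCAM-positive, reporter-positive cells were sorted in bulk from each tissue. Because the reporter sits in Il25, the level of Il25 is no independent result. The 14 other libraries each came from 1 male mouse 12 weeks old. Each trachea library was a pool of 4 mice. Pool 1 was male and 12 weeks old (210 cells), pool 2 was male and 16 weeks old (453 cells), pool 3 was female and 16 weeks old (130 cells), and pool 4 was female and 14 weeks old (230 cells). The other tuft libraries held between 1350 and 36000 cells. Trachea was also the only tissue released with Dispase and trypsin, so tissue, preparation and cell number cannot be told apart.

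Tuft cells of the trachea, also called brush cells, are rare chemosensory cells scattered among the ciliated, secretory and basal cells of the airway lining. They carry proteins known from taste buds: receptors that couple to the G protein gustducin, phospholipase C, an inositol trisphosphate receptor and the cation channel Trpm5. Airway tuft cells are known for responses to bitter substances and bacterial products and for release of acetylcholine, leukotrienes and the cytokine IL-25.

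Depth was high in all trachea pools, at 25739248 to 70243068 counts per library, with 14880 to 17824 genes having at least 1 count and 5.57 to 10.07% of counts from mitochondrial transcripts. Correlations of log2 levels between trachea pools were 0.837 to 0.857, and those between a trachea and another tuft library reached at most 0.791. Levels are given as CPM, counts scaled to a common library total, and the pools are listed in the order 1 to 4. In bulk RNA, fewer cells of a type and less RNA per cell cannot be told apart. No label says how the pools were assembled beyond the number of mice, and p-values measure the spread between these libraries. The main test shares its estimate of spread for a gene over all tissues. Taken group by group, the relative spread between replicates was 1.28 in trachea and 0.498 (small intestine) to 1.17 (gall bladder) in the others. Standard errors of trachea therefore draw on groups of smaller spread.

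The main comparison asked which genes differed between trachea tuft cells and the mean of the other 4 tuft tissues, each tissue weighted equally on the log scale. Genes counted as called if their adjusted p was under 0.05 (edgeR quasi-likelihood F test, Benjamini-Hochberg adjustment) and they changed at least 2-fold. Of 19850 genes tested, 3436 (17.3%) were called higher and 2711 (13.7%) lower in trachea, together 31%. The shares of a gene list are to be read beside these shares of all genes. Because the mean is of logs, a gene that is nearly absent from 3 tissues can be called higher in trachea while it is at the same level in the fourth. Trachea was therefore also tested against each tissue separately. In these tests 362 genes (1.82%) were called higher than in each of the other 4 tissues and 580 (2.92%) lower than in each. A further 561 genes called higher against the mean passed against small intestine, colon and gall bladder, the digestive tissues, but not against thymus, and 424 passed against no single tissue. Against single tissues, 13.1% of genes were called higher and 14.7% lower than in small intestine, 12.7% and 14.3% than in colon, 11.6% and 12.2% than in gall bladder, and 7.24% and 20.7% than in thymus.

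Genes that define tuft cells were present in all trachea pools. Pou2f3, the transcription factor needed for tuft cells to form, was at 715, 1250, 991 and 1380 CPM in the trachea pools and at 170 to 742 CPM in the other 14 libraries. All but the lowest trachea pool lay above every other library, and the log2 fold change was 1.5 ± 0.16 (SE; adjusted p = 8.92e-07, called against 3 tissues; against small intestine the log2 difference was 0.77). Trpm5, the taste cation channel, was at 2170, 4220, 2690 and 3080 CPM, between the means of colon (1180) and thymus (1220) on the low side and of small intestine (4830) and gall bladder (5620) on the high side (log2 fold change 0.28 ± 0.15, adjusted p = 0.144). The kinase gene Dclk1 was at 2690, 3800, 3000 and 2400 CPM and overlapped the small intestine and gall bladder libraries (log2 fold change 0.86 ± 0.13, adjusted p = 5.27e-05, under the 2-fold limit). Il25, the gene of the reporter, was at 39.9, 10.6, 14.1 and 62.4 CPM, within the spread of the others apart from pool 4 (adjusted p = 0.278).

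Of 40 genes of a tuft core list, 10 were called higher and 9 lower (25% and 22.5%, beside 17.3% and 13.7% of all genes), with a median log2 fold change of 0.38 beside -0.01 over all genes. In the higher direction 3 members passed against each of the 4 tissues: Gnb3, described with the taste genes, Lrmp and Pik3cg. Lrmp, a membrane protein of the endoplasmic reticulum, was at 1990, 1540, 2620 and 2670 CPM and at 83.2 to 1220 CPM in the others, without overlap (log2 fold change 2.02 ± 0.21, adjusted p = 7.23e-07). Pik3cg, the catalytic subunit of a phosphoinositide 3-kinase activated by G proteins, was at 954, 1390, 1140 and 1340 CPM and at 174 to 597 CPM elsewhere, again without overlap (log2 fold change 1.83 ± 0.13, adjusted p = 8.43e-09). Siglecf, a sialic acid binding receptor, was the core gene lower than in each tissue. It was at 5.41, 7.89, 7.08 and 1.88 CPM in trachea, at a mean of 1030 in small intestine, 311 in gall bladder, 141 in colon and 19.1 in thymus (log2 fold change -4.94 ± 0.39, adjusted p = 2.52e-08). Gfi1b and Trim38 were called lower as well, at means of 37.5 and 0.601 CPM in trachea.

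The plot of 12 genes by library shows the levels on which the next paragraphs turn.

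**Figure D1:**
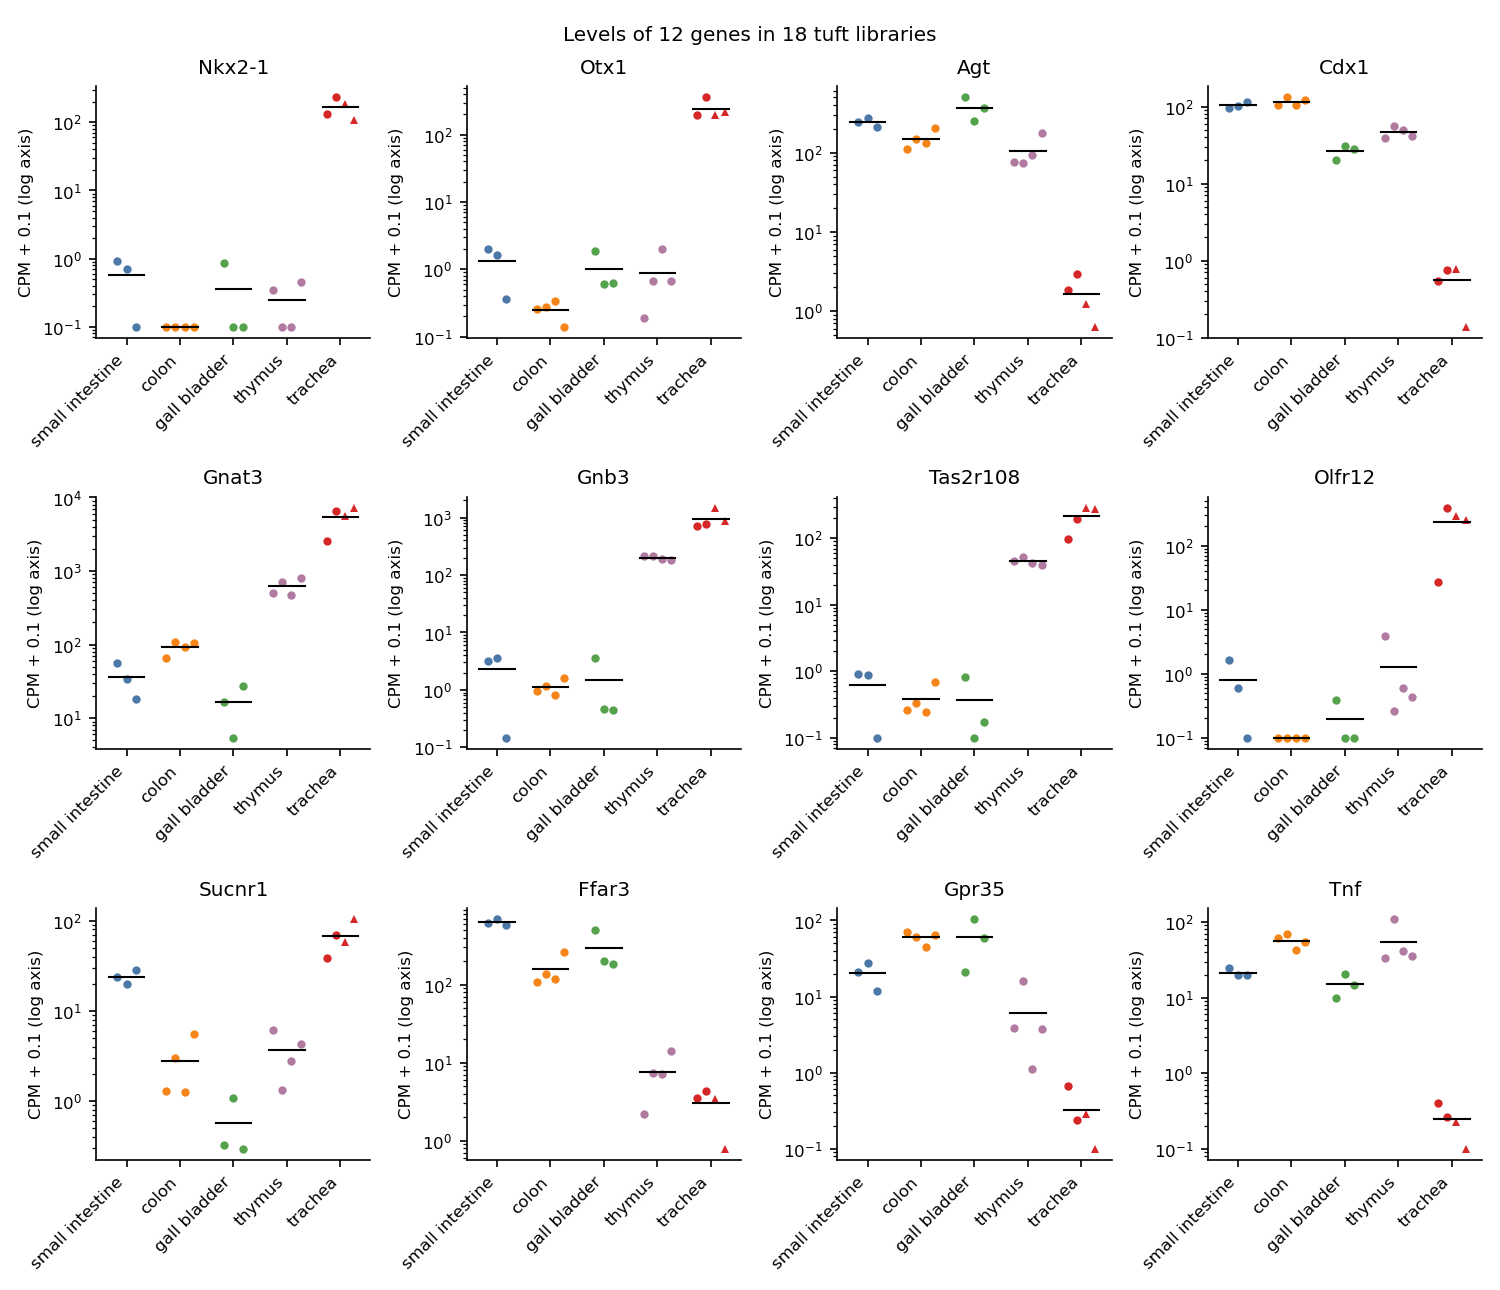
Level of 12 genes in the 18 tuft libraries, as CPM plus 0.1 on a log axis, by tissue. Each symbol is 1 library (triangles are the female trachea pools) and each bar is the mean of a tissue. Nkx2-1, Otx1, Gnat3, Gnb3, Tas2r108 and Olfr12 had all 4 trachea pools above all 14 others, Agt, Cdx1, Gpr35 and Tnf had all 4 below, Sucnr1 was nearest to small intestine and Ffar3 overlapped with thymus.

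More transcription factors of the foregut and airway were called higher than lower, and those of the intestine were mostly called lower. Of 29 tested members of the foregut and airway list, 16 were called higher and 6 lower (55.2% and 20.7%, beside 17.3% and 13.7% of all genes; median log2 fold change 3.84), and 7 were higher than in each of the 4 tissues (Nkx2-1, Foxa1, Sox2, Sox21, Foxp2, Irx1 and Irx5). Otx1 and Tbx1 are not in the list and were named by rank. Nkx2-1, the homeodomain factor that specifies lung, trachea and thyroid (ENSMUSG00000001496, GRCm38 chromosome 12, 56531958 to 56536908, minus strand), was at 132, 232, 189 and 110 CPM. In the 14 other libraries it did not exceed 0.827 CPM, and it had no count in colon, against which the trachea mean was at least 2680-fold higher (floor of 3 counts per library). The fitted log2 fold change was 10.93 ± 1.04 (adjusted p = 7.15e-07). Fitted values of genes with no count in a tissue depend on the prior count of the model. Otx1, a homeobox gene better known from brain and sense organs, was at 196, 357, 199 and 217 CPM and at most 1.90 CPM elsewhere (8.63 ± 0.55, adjusted p = 1.76e-09).

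Sox2, a factor of foregut and airway progenitors, was at 47.7, 19.6, 72.4 and 68.0 CPM and at most 1.28 CPM in any other library. Tbx1, a T-box factor of the pharynx, was at 54.4, 41.8, 25.8 and 57.1 CPM and at most 0.205 CPM elsewhere. It stood at least 722-fold above colon, where it had no count. Foxa1, a forkhead factor of endoderm, was at 427, 1150, 501 and 487 CPM. Its level elsewhere was widely spread, with means of 221 in colon, 83.9 in thymus, 42.8 in small intestine and 1.22 in gall bladder, and all trachea pools lay above all of them (4.35 ± 0.38, adjusted p = 6.66e-08). The iroquois homeobox genes Irx1 (112, 35.5, 33.4 and 106 CPM) and Irx5 (37.5, 29.5, 7.08 and 5.38 CPM) also passed against each tissue, as did Sox21 and Foxp2. None of these trachea ranges overlapped with the other libraries.

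Pharyngeal factors were also found in thymus. Pax9, a factor of the pharyngeal pouches, from which the thymus arises, was at 34.2, 23.4, 18.4 and 100 CPM in trachea and 53.6 CPM in the mean of thymus. It did not pass against thymus (log2 difference -0.28, adjusted p = 0.817) and was under 1 CPM in the means of the digestive tissues. Eya1, a transcriptional coactivator of the same region, was at 113, 51.6, 204 and 215 CPM, at 302 in the thymus mean and 61.9 in gall bladder, and passed against small intestine and colon only. The thymic factors Foxn1 and Fezf2, at means of 179 and 303 CPM in thymus, were at most 0.187 CPM in any trachea pool.

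Of 25 intestinal and biliary transcription factors, 21 were called lower and 1 higher (84% and 4%; median log2 fold change -4.69), and 8 were lower than in each tissue. Cdx1, a homeobox factor of intestinal identity, was at 0.435, 0.644, 0.686 and 0.0385 CPM and at 20.3 to 131 CPM elsewhere (-7.06 ± 0.53, adjusted p = 1.25e-08). Hnf4a was at 5.90, 2.86, 3.43 and 2.58 CPM and at means of 285 to 776 CPM in the digestive tissues, while its thymus mean was 13 CPM.

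Hox genes lie in clusters, numbered in groups along each cluster, and their order mirrors their use from head to tail. In groups 1 to 8, 7 of 21 tested genes were called higher and 1 lower (33.3% and 4.76%), with a median log2 fold change of -0.05, and 7 of the 23 listed genes had no count in any trachea pool. Hoxa2 was at 36.3, 111, 48.9 and 149 CPM and at most 21.8 CPM elsewhere (5.92 ± 0.45, adjusted p = 1.35e-08). Hoxa3 was at 71.1, 142, 123 and 359 CPM, with colon next at a mean of 66.6 CPM and overlapping pool 1. In groups 9 to 13, 0 of 13 were called higher and 5 lower (38.5%), with a median of -3.73. The difference between the sets of groups was not tested. Hoxa9, Hoxa13, Hoxb9 and Hoxb13 had no count in any trachea pool and means of 40.5, 47.8, 54.3 and 57.6 CPM in colon, so trachea was at least 483-fold, 570-fold, 647-fold and 687-fold lower than colon (floor of 3 counts per library). All 4 genes were under 10 CPM in the mean of each remaining tissue. In gall bladder their means were 0.0168 to 0.0336 CPM, and none was called against it. Groups 9 to 13 summed to 0 to 0.384 CPM in gall bladder and 0 to 0.686 CPM in trachea, so their near absence is not particular to trachea.

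The alpha and beta subunits of gustducin were higher in trachea than in each other tissue. Of 25 tested taste signalling proteins, 11 were called higher and 3 lower (44% and 12%, beside 17.3% and 13.7% of all genes), 4 of them higher than in each tissue, and the summed level of the list was 7670, 14300, 14100 and 14200 CPM in trachea and 2420 to 8650 CPM in the others. Gnat3, the alpha subunit of gustducin (ENSMUSG00000028777, GRCm38 chromosome 5, 17962549 to 18019834, plus strand), was at 2590, 6610, 5650 and 7090 CPM. All other libraries lay between 5.33 and 811 CPM. The means were 621 in thymus, 93.4 in colon, 35.7 in small intestine and 16.3 in gall bladder (6.17 ± 0.30, adjusted p = 8.32e-11; log2 difference from thymus 3.14, adjusted p = 3.66e-05). Gnb3, a beta subunit that pairs with gustducin, was at 704, 781, 1440 and 859 CPM. Its mean was 201 CPM in thymus, and every library of the digestive tissues was under 4 CPM (7.54 ± 0.55, adjusted p = 7.82e-09; adjusted p = 0.0509 with all other libraries as 1 group). Gng13, the gamma subunit, was at 75.1, 59.7, 54 and 60.5 CPM in trachea and at a mean of 44.3 CPM in thymus and 121 CPM in gall bladder. It passed against neither, and with all other libraries as 1 group its log2 fold change was 0.68 (adjusted p = 0.696).

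Tas1r3, the shared subunit of the sweet and umami receptors, was at 198, 360, 519 and 716 CPM and at 1.52 to 178 CPM elsewhere, without overlap (4.47 ± 0.37, adjusted p = 3.35e-08). Its umami partner Tas1r1 was at 0.0272, 0.0150, 0 and 0 CPM in trachea and lower than in each tissue (adjusted p = 0.00352, and 0.0857 by limma voom). The means of Tas1r1 were 12.7 CPM in thymus, 4.25 in gall bladder, 0.295 in small intestine and 0.288 in colon. Kcnj2, an inward rectifier potassium channel, was at 84.2, 338, 151 and 154 CPM and at 68.3 CPM in the mean of thymus (4.05 ± 0.37, adjusted p = 1.16e-07). Rgs21, a regulator of G protein signalling found in taste cells, was at 7.92, 74.9, 161 and 115 CPM. It overlapped thymus (mean 43.5 CPM) and was under 1 CPM in the digestive means. Plcb2, the phospholipase of the pathway, was at 202, 684, 1050 and 530 CPM (-0.10 ± 0.27, adjusted p = 0.867). Pool 1 lay just below the range of the other libraries (230 to 1350 CPM) and the other pools within it.

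Bitter receptors, which gustducin serves, were measured mainly in trachea and thymus. Of 29 tested receptors (35 listed), 17 were called higher against the mean and 0 lower (58.6%), but 1 passed against thymus as well, and with all other libraries as 1 group the edgeR test called 0 of 28 tested (8 at an unadjusted p under 0.05). The summed level was 128, 298, 459 and 456 CPM in trachea and 145 to 236 CPM in thymus, and at most 2.13 CPM in any digestive library. At least 1 CPM was reached by 6, 9, 12 and 14 receptors in the trachea pools and by 22 to 26 in the thymus libraries. The receptor that passed against each tissue was Tas2r108 (ENSMUSG00000037140, GRCm38 chromosome 6, 40493529 to 40494541, plus strand). It was at 97.3, 197, 282 and 279 CPM in trachea, at 45.1 CPM in the mean of thymus and at most 52.3 CPM in any other library (7.51 ± 0.61, adjusted p = 3.13e-08; log2 difference from thymus 2.24, adjusted p = 0.0408; adjusted p = 0.0537 with all other libraries as 1 group). Pool 1 was lowest, and still above every thymus library. Tas2r137 was at 4.16, 15.3, 91.4 and 47.3 CPM beside a thymus mean of 24 CPM, and Tas2r116 at 12.0, 0.674, 6.52 and 32.2 CPM beside 3.12 CPM. Both overlapped thymus. Reads of similar members of this family may not have been told apart, since how reads were counted is not given.

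**Figure D2:**
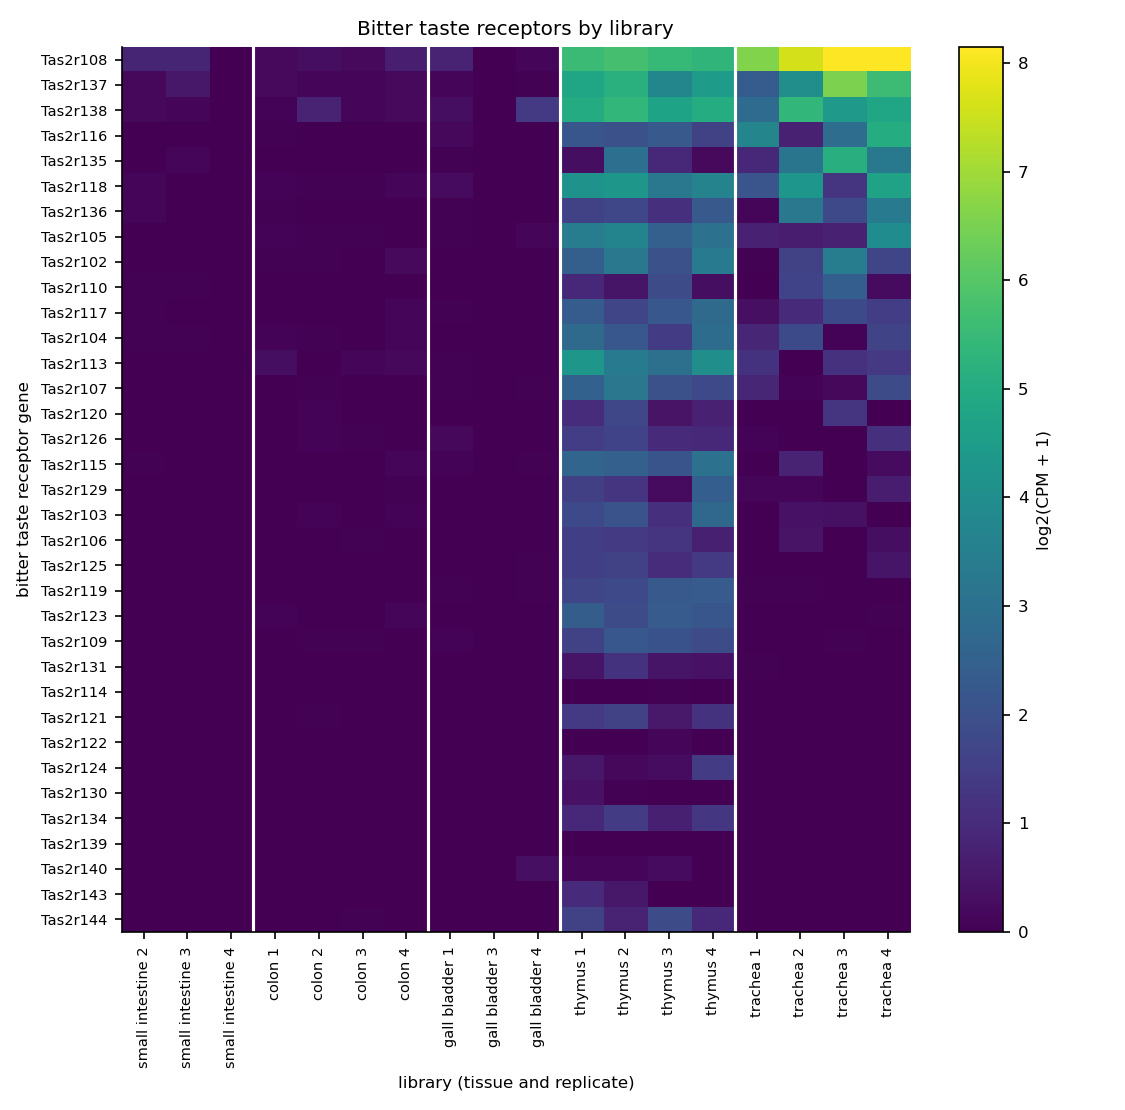
Level of the 35 listed bitter taste receptor genes in the 18 tuft libraries, as log2(CPM + 1) by colour, with genes ordered by their trachea mean and white lines between tissues. The digestive libraries are near 0 throughout, thymus libraries show 22 to 26 receptors at 1 CPM or more, and trachea pools show 6 to 14, with Tas2r108 at the top.

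The upstream sequences of Gnat3 and Tas2r108, a taste signalling gene and a bitter receptor higher than in each tissue, are printed because each held a match to a core motif. The motifs are those of the families of Nkx2-1 and Pou2f3, factors also higher in trachea. Printed are the 250 bases before the RefSeq start in GRCm38.p6, 5' to 3', at chr5:17962320-17962569 (plus strand) and chr6:40493342-40493591 (plus strand). Capitals mark a match on either strand to the core CAAGTG of NK2 homeodomain factors such as Nkx2-1 in Gnat3, or to the core ATGCAAA of POU octamer factors such as Pou2f3 in Tas2r108.
Gnat3: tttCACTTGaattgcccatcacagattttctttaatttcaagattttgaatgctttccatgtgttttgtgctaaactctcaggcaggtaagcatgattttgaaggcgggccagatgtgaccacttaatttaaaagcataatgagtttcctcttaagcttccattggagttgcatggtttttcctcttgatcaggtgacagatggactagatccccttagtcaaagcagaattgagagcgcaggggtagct
Tas2r108: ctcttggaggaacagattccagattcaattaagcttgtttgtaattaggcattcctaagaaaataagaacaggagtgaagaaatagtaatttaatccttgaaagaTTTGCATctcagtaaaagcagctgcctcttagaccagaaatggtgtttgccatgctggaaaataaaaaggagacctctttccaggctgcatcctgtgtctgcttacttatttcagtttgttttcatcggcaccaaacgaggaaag
The match began 247 bases before the RefSeq start of Gnat3 and 145 bases before that of Tas2r108. The GENCODE starts given above, 17962549 and 40493529, lie within the printed stretches. The last printed bases are therefore inside the genes by GENCODE, and the distances hold for the RefSeq starts only. Over 27025 genes with such a sequence, 13.2% held CAAGTG and 4.65% held ATGCAAA. Of the 20 genes named as higher by rank, 16 had a sequence, of which 2 (Scgb3a1 and Cyp2f2) held CAAGTG and 1 (Cldn22) held ATGCAAA. A forkhead core, TGTTTAC, was searched for too and was held by 3.54% of all genes and 0 of the 16. The sequences of Nkx2-1 and Bpifa1 were also searched, held no match to any of these cores and are not printed. A match is a string of letters, not a site.

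Receptors for metabolites differed in both directions. Of 16 tested metabolite and lipid receptors, 4 were called higher and 6 lower (25% and 37.5%). Sucnr1, the succinate receptor (ENSMUSG00000027762, GRCm38 chromosome 3, 60081869 to 60087566, plus strand), was at 38.8, 70.1, 58.6 and 103 CPM, above every other library (highest 28.1 CPM). It passed against the mean (4.40 ± 0.46, adjusted p = 5.38e-07) and against colon, gall bladder and thymus, whose means were 2.69, 0.472 and 3.55 CPM. Against small intestine, with a mean of 23.8 CPM, the log2 difference of 1.51 did not pass (adjusted p = 0.118). Ffar3, a receptor for short-chain fatty acids, went the other way. It was at 3.43, 4.27, 3.37 and 0.692 CPM in trachea, 7.59 CPM in the mean of thymus (log2 difference -1.36, adjusted p = 0.0547), and at means of 625 in small intestine, 156 in colon and 294 in gall bladder (-5.36 ± 0.58, adjusted p = 8.54e-07). Gpr35 (0.571, 0.135, 0.187 and 0 CPM) and the lysolipid receptor Gpr55 (1.06, 0.779, 1.15 and 0.231 CPM) were lower than in each tissue, with all other libraries above 1 CPM. Hcar2, a hydroxybutyrate receptor called higher, was at 71.4, 1.59, 8.79 and 2.54 CPM and without pool 1 its log2 fold change of 1.11 did not pass (adjusted p = 0.256).

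Single members of the odorant receptor families were higher. Of 1166 olfactory receptor genes in the files 19 had enough counts to be tested, which trachea itself can provide. Of these, 7 were called higher and 1 lower (beside 17.3% and 13.7% of all genes), and 1 was higher than in each tissue. That gene, Olfr12, was at 26.5, 381, 289 and 251 CPM in trachea and at most 3.79 CPM in any other library (10.91 ± 1.02, adjusted p = 5.71e-07). Of 295 vomeronasal receptor genes 5 were tested, too few to set beside those shares, of which 1 was called higher and 1 lower. The former, Vmn1r43, was higher than in each tissue, at 8.87, 40.5, 17.9 and 112 CPM and at most 0.790 CPM elsewhere (8.09 ± 0.86, adjusted p = 7.51e-07). Pool 1 was lowest for both. Here too, reads from near-identical family members may not have been told apart.

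Among purine genes, 5 of 23 were called higher and 4 lower (21.7% and 17.4%), shares close to those of all genes. The ATP-gated channel P2rx6 was at 20.7, 1.35, 67.0 and 48.7 CPM, and the nucleotidase Entpd3 at 189, 344, 188 and 84.4 CPM, close to thymus at 149 CPM. P2rx1, another ATP-gated channel, was at most 0.644 CPM in any pool and lower than in each tissue, with small intestine at a mean of 150 CPM (-6.34 ± 0.73, adjusted p = 1.76e-06). Trpc5, a cation channel gene named by rank, was at 13.5, 16.6, 86.9 and 3.08 CPM and at most 0.782 CPM elsewhere.

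Alox5 and Ptgs1, enzymes at the start of eicosanoid synthesis, differed from the mean of the other tissues by less than 2-fold. Of 32 leukotriene and prostaglandin genes, 6 were called higher and 7 lower (18.8% and 21.9%), and the share of higher calls was close to that of all genes. Alox5, which starts leukotriene synthesis, was at 542, 1090, 865 and 823 CPM (0.54 ± 0.18, under the 2-fold limit), and Ptgs1, cyclooxygenase 1, at 728, 654, 742 and 981 CPM (0.68 ± 0.14, under the limit). Both overlapped small intestine and gall bladder, and both passed against colon (log2 differences 1.67 and 2.00, adjusted p = 2.56e-05 and 3.47e-07). Hpgds, a prostaglandin D synthase, was at 38, 59.8, 26.1 and 64.4 CPM and called lower close to the limit (-1.01 ± 0.26, adjusted p = 0.00556), which it missed at -0.92 without pool 1 and -0.80 without pool 3. Alox15 was at 129, 106, 24.2 and 116 CPM, like thymus at 112 CPM and unlike the digestive means of at most 2.09 CPM.

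Chat, which makes acetylcholine, was at 97.7, 266, 289 and 62.6 CPM (-0.33 ± 0.31, adjusted p = 0.442). It overlapped small intestine, colon and thymus. All pools lay below the gall bladder libraries (345 to 492 CPM), against which it was called lower (log2 difference -1.31, adjusted p = 0.0227). Of 22 acetylcholine genes, 2 were called higher and 8 lower (9.09% and 36.4%). Ache, which breaks acetylcholine down, was at most 0.165 CPM in trachea and at a mean of 230 CPM in thymus (-6.66 ± 0.80, adjusted p = 3.18e-06). Its means were 10.1 CPM in colon, 3.07 in small intestine and 0.519 in gall bladder. The receptor subunit gene Chrna10 had no count in trachea and a thymus mean of 18 CPM. Its digestive means were at most 0.679 CPM, and by limma voom it was not called (adjusted p = 0.0545). Both genes were thus high mainly in thymus.

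Of 28 cytokine and receptor genes, 2 were called higher and 10 lower (7.14% and 35.7%). Il13ra1, a receptor chain for interleukins 4 and 13, was at 223, 238, 261 and 404 CPM and at most 222 CPM elsewhere (1.68 ± 0.20, adjusted p = 3.73e-06). Tnf, the inflammatory cytokine, was at 0.299, 0.165, 0.125 and 0 CPM in trachea and at 9.68 to 108 CPM in the other libraries (-7.66 ± 0.72, adjusted p = 1.6e-07), without overlap. Il33 was at most 0.0544 CPM in any trachea pool.

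Of 31 vesicle release genes, 13 were called lower (41.9%) and 5 higher (16.1%, near the share of all genes). The SNARE gene Vamp2 was higher than in each tissue, at 528, 572, 948 and 1010 CPM and at most 375 CPM elsewhere (2.16 ± 0.17, adjusted p = 2.96e-08). Syt1, a calcium sensor of release, was at 0.136, 0.195, 0 and 0 CPM and lower than in each, with a thymus mean of 140 CPM. Its means were 29.6 CPM in gall bladder, 2.08 in small intestine and 1.34 in colon. Ncam1, an adhesion molecule of nerve cells, was at 16.4, 16.8, 22.2 and 23.3 CPM and at most 4.66 CPM elsewhere (6.83 ± 0.74, adjusted p = 9.45e-07).

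**Figure D3:**
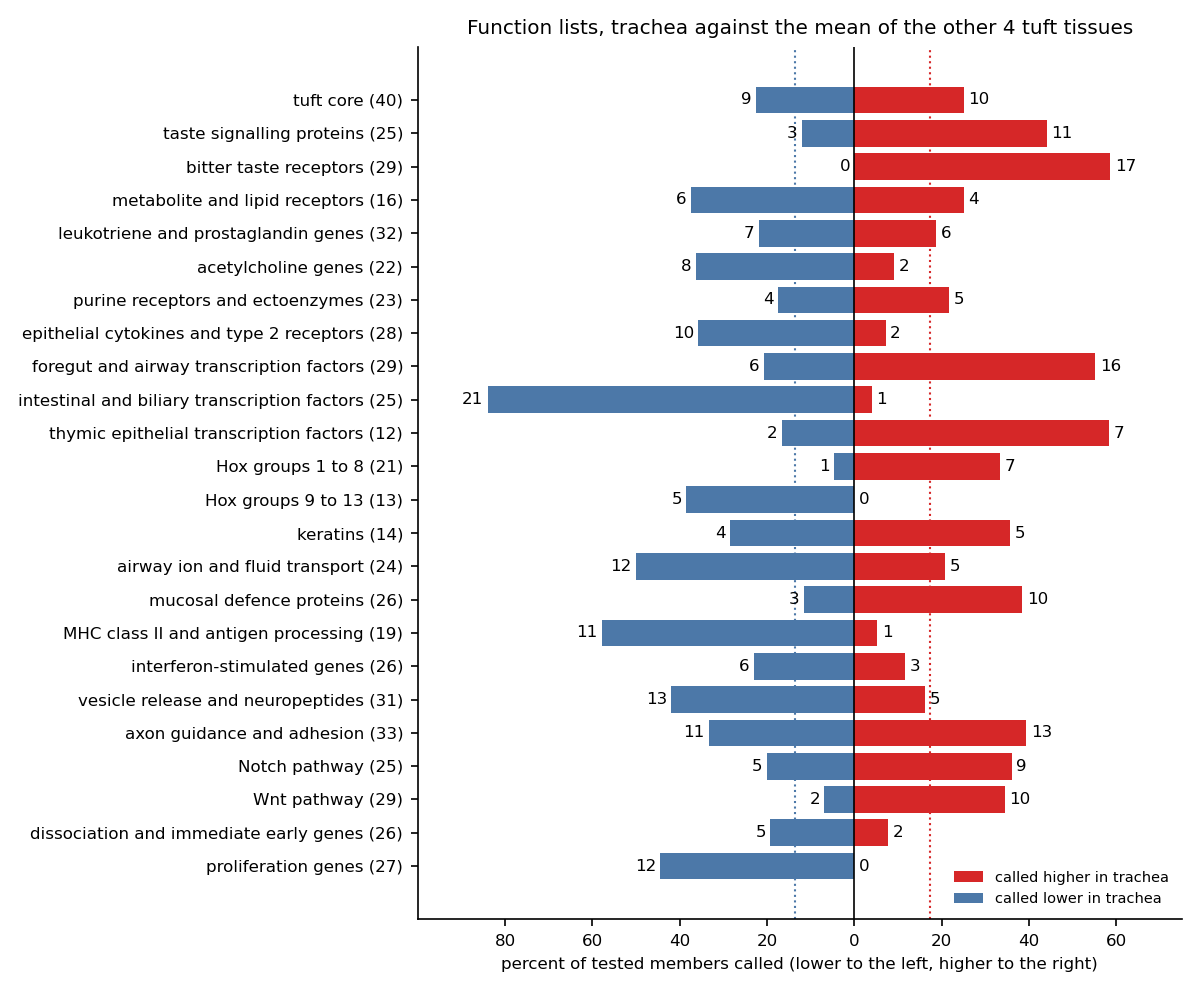
Percent of tested members of 24 function lists called higher (red, right) or lower (blue, left) in trachea against the mean of the other 4 tuft tissues, with member counts at the bars and tested members in brackets. Dotted lines mark the shares over all 19850 genes, 17.3% higher and 13.7% lower. Bitter receptors (17 of 29) and foregut factors (16 of 29) reach far to the right and intestinal factors (21 of 25) far to the left.

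Airway secretory genes were among the largest increases. Of 17 markers of club and secretory cells, the mucus and defence cells of the airway lining, 15 were called higher and 0 lower. These were 88.2% and 0%, beside 17.3% and 13.7% of all genes, and 11 were higher than in each tissue. Scgb1a1, the main club cell secretoglobin, was at 53200, 16800, 14200 and 8970 CPM in trachea and at 0.238 to 252 CPM in the other libraries (10.05 ± 1.07, adjusted p = 7.15e-07). Bpifa1, a secreted airway defence protein, was at 35000, 20400, 15000 and 11100 CPM and at most 201 CPM elsewhere. Cyp2f2, a cytochrome of club cells, was at 18500, 8160, 6520 and 5350 CPM and at most 199 CPM elsewhere. All pools stood far above all other libraries, and pool 1 was the highest in each.

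The whole marker list summed to 137000, 56300, 48300 and 37000 CPM in the pools and to 209 to 1660 CPM elsewhere. It took 14.0, 5.36, 4.5 and 3.73% of all counts in trachea and 0.0189 to 0.214% in the other tuft libraries. Pool 1 was the highest for 13 of the 15 called markers. It was the lowest pool for 19 of the 40 tested tuft core genes (5, 8 and 8 in pools 2 to 4), and its tuft core list summed to 21900 CPM, beside 38000, 35700 and 33200 CPM in pools 2 to 4. The part of other airway cells in the secretory result was not tested. Without pool 1, 3436 genes were called higher against the mean, 421 were higher than in each tissue and 771 lower than in each. With pool 1 these counts were 3436, 362 and 580. Equal totals need not hold the same genes, and over all genes the sets were not compared. Of the called genes of the text, 2 were no longer called (Hcar2 and Hpgds).

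Markers of the other airway cells were at lower sums. The ciliated list, whose cells carry motile cilia, had 15 of 24 called higher and 3 lower (62.5% and 12.5%, beside 17.3% and 13.7% of all genes). Of its members 1 was higher than in each tissue. The list summed to 1960, 1210, 851 and 596 CPM, beside 33.7 to 765 CPM elsewhere. Foxj1, its defining factor, was at 19.2, 79.4, 0.0936 and 2.85 CPM and did not pass (adjusted p = 0.0729, but 0.0205 without pool 3 and 0.0471 without pool 4), and the dynein gene Dnah5 was lower (25.6, 7.64, 0.156 and 0.0769 CPM). The means of Dnah5 were 580 in gall bladder, 293 in colon, 114 in thymus and 2.72 in small intestine, against which it did not pass, and with all other libraries as 1 group it was not called (adjusted p = 0.0558). The basal list, of the stem cells of the airway, had 9 of 14 higher and 0 lower (64.3% and 0%), and 1 was higher than in each tissue. It summed to 993, 632, 765 and 344 CPM, but thymus summed to 1620 to 1760 CPM. Krt5, the basal keratin, was at 114, 72.8, 7.33 and 9.69 CPM, above the digestive tissues and below thymus at 675 CPM (log2 difference from thymus -3.73, adjusted p = 0.0053), and with all other libraries as 1 group its log2 fold change was -1.82 (adjusted p = 0.572). Krt15, another basal keratin, was at 727, 110, 364 and 213 CPM and higher than in each tissue.

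Of 11 tested myeloid markers, 4 were called higher and 4 lower (36.4% each, beside 17.3% and 13.7% of all genes). The list summed to 3800, 1810, 3240 and 1920 CPM, of which Lyz2, lysozyme, gave 3700, 1760, 3070 and 1900 CPM. The other markers called higher were Cd14 (87.8, 9.69, 155 and 4.35 CPM), Mrc1 (2.45, 10.8, 4.27 and 17.2 CPM) and Itgax (at most 2.53 CPM). The markers called lower were Fcer1g, at 0 in all pools, and Csf1r, Itgam and C1qb, at most 0.249 CPM in any pool. The part of myeloid cells was not tested. Ltf, the lactoferrin of secretory and gland cells, was at 1290, 205, 569 and 318 CPM. Lymphocyte markers were called higher in 0 and lower in 1 of 12 (8.33%, below the 13.7% of all genes). They summed to at most 8.42 CPM in any pool. Enterocyte markers were lower in 14 of 17 (82.4%) and colonocyte and goblet markers in 12 of 14 (85.7%), beside 13.7% of all genes. Lower than in each tissue were 3 and 5 of them. The enterocyte list summed to 386 to 832 CPM in trachea and overlapped thymus (436 to 737). The colonocyte and goblet list summed to 272 to 1110 CPM in trachea and overlapped gall bladder (287 to 887).

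**Figure D4:**
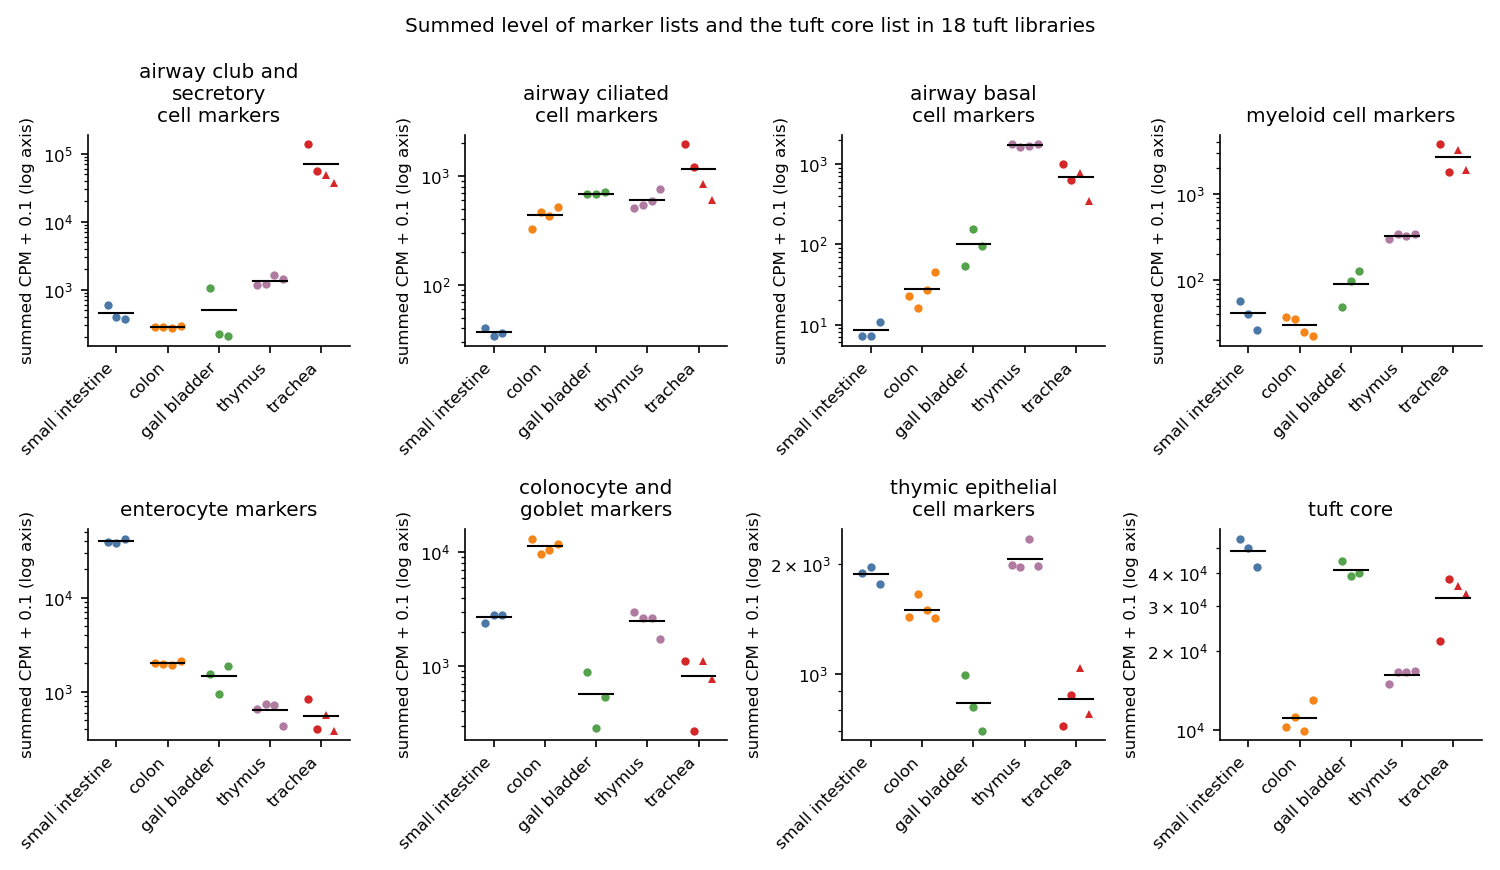
Summed level of 7 marker lists and the tuft core list in the 18 tuft libraries, as CPM plus 0.1 on a log axis, by tissue, with 1 symbol per library (triangles are the female trachea pools) and bars at tissue means. Secretory markers lie at 37000 to 137000 CPM in trachea and at most 1660 CPM elsewhere, basal markers are highest in thymus, and all 4 tuft core sums of trachea lie between those of thymus and those of gall bladder.

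The 20 largest increases by the rule (Tbx1, Sult1c1, Nkx2-1, Scgb3a1, Pon1, Scgb3a2, Sec14l3, Chad, Cldn22, Scgb1a1, Fmo6, Olfr12, Otx1, Bpifa1, Trpc5, Lgr6, Vmn1r43, Bpifb1, Cyp4a12b and Cyp2f2) came from 233 eligible genes. Besides the secretory genes and factors above, they held enzymes of foreign-compound metabolism. Pon1, paraoxonase, was at 177, 29.8, 40.7 and 67.8 CPM, and the monooxygenase gene Fmo6 at 222, 35.8, 8.45 and 37.1 CPM, both highest in pool 1 and at most 1.02 CPM elsewhere. Lgr6, a receptor that enhances Wnt signals, was at 275, 183, 145 and 186 CPM and at most 5.48 CPM elsewhere, with no pool far from the rest (9.73 ± 0.91, adjusted p = 1.49e-07). Sult1c1, a sulfotransferase, was at 12.2, 21.5, 174 and 9.38 CPM, and Cldn22, a claudin, at 4.08, 11.7, 106 and 1.5 CPM. Pool 3 held most of the level of both.

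The 10 largest decreases by the rule (among them Pmaip1, Gstt2, Bmp2, Adcy5, Smpd3, Agt, Sgpp2, Cdx1 and Filip1l) came from 124 eligible genes that were at 20 CPM or more in the mean of each other tissue. Agt, angiotensinogen, was at 1.74, 2.85, 1.15 and 0.538 CPM in trachea and at 73.4 to 500 CPM in the other 14 libraries (-6.93 ± 0.49, adjusted p = 5.48e-09). Adcy5, an adenylyl cyclase, was at 0.680, 0.928, 1.12 and 0.154 CPM and at 25.7 to 173 CPM elsewhere. Bmp2, a secreted growth factor, was at 1.63, 0.988, 0.561 and 0.385 CPM and at 27.6 to 137 CPM elsewhere. Pmaip1, which promotes cell death, was at most 0.584 CPM in trachea. Pool 4, the pool of lowest depth, was the lowest for Agt, Adcy5, Bmp2 and Pmaip1.

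Ion and fluid transport genes were lower in 12 of 24 (50%) and higher in 5 (20.8%), the latter near the share of all genes. Carbonic anhydrase genes Car2 (2.91, 0.374, 0.0936 and 0.192 CPM) and Car12 (at most 0.136 CPM) were lower than in each tissue, with colon at means of 418 and 72.3 CPM. Scnn1a, a subunit of the airway sodium channel, was higher at 586, 241, 380 and 384 CPM (1.93 ± 0.22, adjusted p = 1.48e-06). It overlapped thymus (mean 206 CPM), from which its log2 difference of 0.95 was under the 2-fold limit. MHC class II and antigen processing genes were lower in 11 of 19 (57.9%) and higher in 1 (5.26%), and 1 was lower than in each tissue. The list summed to 2060 to 3590 CPM in trachea, overlapping gall bladder (1780 to 2580) and colon (3290 to 3960). It summed to 6240 to 6640 CPM in small intestine and 21600 to 26100 CPM in thymus. H2-Ab1 was at 1.90, 2.34, 0.904 and 0 CPM in trachea and lower than in each tissue (-5.24 ± 0.69, adjusted p = 8.9e-06). Its means were 1910 CPM in thymus, 56.6 in colon, 10.9 in small intestine and 5.31 in gall bladder. The class II activator Ciita was at most 0.0898 CPM in any pool. Proliferation genes were lower in 12 of 27 (44.4%) and higher in 0, and the list summed to 103 to 168 CPM in trachea, beside 1400 to 1870 in colon and 90.5 to 141 in gall bladder. Mki67 was at 22.5 CPM in pool 1 and at most 1.43 CPM in the other pools.

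Many genes called higher came from few pools. Of the 3436 genes called higher against the mean, 1715 (49.9%) had more than 50% of their summed trachea level in 1 pool, 755 had no count in at least 1 pool, and 425 did not overlap with any other library. Among the 2711 called lower, 1438 (53%) had more than 50% in 1 pool. Of these 2711, 1489 had no count in at least 1 pool and 427 had none in all 4. Their share therefore rests on few counts and is no control for the genes called higher. The share over all genes was not computed. Of the 362 called higher than each tissue, 80 (22.1%) had more than 50% in 1 pool and 257 did not overlap. Over all genes tested, 2.24% had all 4 trachea pools above all 14 others and 2.2% had all 4 below. With the male pools alone 2453 of the 3436 were called, with the female pools alone 2452, and in both 1570. Of the 362, 220 and 268 passed against each tissue with male and with female pools alone, and 153 in both.

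**Figure D5:**
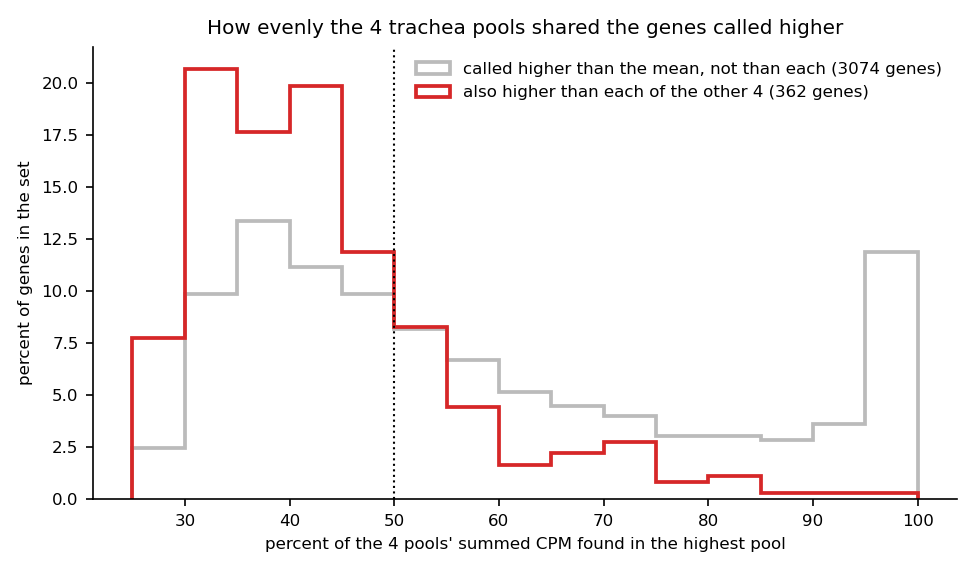
Distribution of the percent of the 4 pools' summed CPM that lay in the highest pool, for the 3074 genes called higher against the mean but not against each tissue (grey) and the 362 also higher than each tissue (red), as percent of genes per bin. The dotted line is 50%. The grey set has a median of 52% and a second peak near 100%, where 1 pool holds nearly everything, and the red set has a median of 40.8%.

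Female and male trachea pools were compared with 2 pools each, so sex, age and pool cannot be told apart. Of 19850 genes, 114 (0.574%) were called higher and 330 (1.66%) lower in the female pools, 16 of them on chromosome X or Y (3.6%, beside 3.19% of tested genes). Of the called genes, 139 were also called in the main comparison, 31.3% beside 31% of all genes, which is the background share. Xist, which silences an X chromosome in female cells, was at 2.83 and 6.38 CPM in the male pools and 4570 and 4900 CPM in the female pools, and did not pass between them (adjusted p = 0.0535). Ddx3y, on the Y chromosome, was at 18.1 and 32.2 CPM in the male and 0.249 and 0.154 CPM in the female pools. Both match the labelled sex, and since all other libraries were male, the call of Xist against them cannot be told apart from sex. Outside the sex chromosomes Dnah5 was lower in the female pools (log2 difference -7.09 ± 0.85, adjusted p = 0.000342), as were Smpd3, Car2 and Syt1. Leaving out pool 4 raised the genes called higher in the female pools from 114 to 300. None of Gnat3, Nkx2-1, Sucnr1, Tas2r108, Otx1 and Scgb1a1 was called between the sexes. Since the same test did not call Xist, the lack of a call does not show that these genes are alike in both sexes.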

How the data were processed

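Poly(A) RNA of sorted cells was amplified before sequencing, and the labels' protocols name no molecular identifiers, so reads are not independent molecules, and floors cover counting error only. The authors deposited unnormalized whole counts for each gene. STAR, DESeq2 and GRCm38 are listed in the submitters' processing notes. Not given in the sources used here are versions, strand use, annotation and how reads were counted. Of 43432 identifiers, 42462 had an entry in GENCODE M21, which gave symbols and coordinates. The rest held 0.116% of counts.

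Counts of the 18 tuft libraries passed through filterByExpr and TMM scaling, and the edgeR 4.0.16 quasi-likelihood F test was used (two-sided, R 4.3.3, tested on simulated data). Contrasts compared trachea with the unweighted mean of the other 4 tissues, with each tissue, and female with male pools. A call needed a Benjamini-Hochberg adjusted p under 0.05 with a log2 fold change of 1 or more either way. Standard errors were derived from F and are approximate. Alternatives used limma 3.58.1, DESeq2 1.42.0, other filters and other sets of libraries. Python 3.11.15 made the tables.

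Members and the 42 gene lists were chosen with earlier results of these data known. The rule for named genes took the 20 largest increases and 10 largest decreases, ranked by the smallest of the 4 pairwise changes, among genes past the tests against every tissue, at 20 CPM or more on the higher side and without overlap. It added list members (the first 2 and up to 4 called each way per list) and Gnat3, Nkx2-1, Sucnr1, Il25, Pou2f3, Trpm5 and Dclk1. Predicted genes, Xist and Y-linked genes were not ranked. A few genes that the rule took are not reported here. Other genes given with values, such as Xist and Ddx3y, were chosen after their values were seen. Bases upstream of genes came from RefSeq (GRCm38.p6).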

Additional observations from a re-analysis of the deposited data

Results flagged for a closer look

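In sets of 4 trachea pools, 143 genes and list sums of the text were examined and 20 had a pool far from the other 3 (a gap beyond Dixon's 95% critical value). That value assumes normally distributed levels, while the levels were not logged, and the sets share genes. The 20 are therefore a list to look at, with no chance rate to set beside them. Pool 1 was the one apart in 9 of these, pool 2 in 4, pool 3 in 4 and pool 4 in 3, and the pool was the highest in 18. Pool 1 was the highest for Scgb3a2 (7340 CPM beside 2170 to 2870), Sec14l3 (1660 CPM beside 414 to 613), Chad (1270 CPM beside 457 to 547), Fmo6 (222 CPM beside 8.45 to 37.1), Hcar2 (71.4 CPM beside 1.59 to 8.79), Mki67 (22.5 CPM beside 0.0385 to 1.43), Car2 (2.91 CPM beside 0.0936 to 0.374) and the erythroid markers (2.97 CPM in sum). It was the lowest for the summed taste signalling proteins, at 7670 CPM beside 14100 to 14300. Pool 2 was the highest for Otx1 (357 CPM), Foxa1 (1150 CPM), Filip1l (2.95 CPM) and the acetylcholine genes (1250 CPM in sum beside 658 to 726). Pool 3 was the highest for Sult1c1 (174 CPM), Cldn22 (106 CPM), Trpc5 (86.9 CPM) and Hox groups 9 to 13 (0.686 CPM in sum). Pool 4 was the highest for the cytokine and receptor list (1230 CPM in sum) and the thymic epithelial factors (889 CPM in sum beside 485 to 537), and it was at 0 for Fezf2. What sets a pool apart was not tested.

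Between female and male pools, 5 genes of the text differed by edgeR's quasi-likelihood test. The log2 differences were -7.09 ± 0.85 for Dnah5, -6.93 ± 0.77 for Ddx3y, -5.94 ± 1.44 for Syt1, -3.5 ± 0.88 for Car2 and -3.05 ± 0.49 for Smpd3 (SE, adjusted p from 0.000165 to 0.0448). Syt1 had no count in either female pool, so its value depends on the model's prior count. All 5 were lower in both female pools than in both male pools. Since the pools also differ in age and cell number, these differences cannot be assigned to sex.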

How the results depend on the processing

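Of 92 called genes of the text, 70 were called the same way under all 32 alternatives. DESeq2 size factors moved the median log2 fold change over all genes from -0.012 to -0.015. Setting all other libraries as 1 group, in place of equal tissues, changed many calls: 1150 genes were called higher and 1616 lower, and the log2 fold change of Krt5 (-1.82) reversed. Another 17 called genes of the text were lost (Pax9, Eya1, Hoxa3, Gnb3, Gng13, Rgs21, Tas2r108, Tas2r116, Tas2r137, Hcar2, Entpd3, Hpgds, Alox15, Dnah5, Mki67, Foxn1 and Fezf2). The log2 fold change moved nearer to 0 for 12 of these (Eya1 from 3.84 to 0.58) and further from 0 for 5 (Hpgds, Dnah5, Mki67, Foxn1 and Fezf2, the last from -3.69 to -9.24). With limma voom, 1852 genes were called higher and 1547 lower, and 210 were lower than in each tissue. With the female trachea pools alone, 925 genes were lower than in each tissue. DESeq2 called 991 genes higher and 1606 lower in female than in male pools. The cause of these changes was not tested. Without 1 library at a time, genes higher than the mean ran from 3146 to 3726, lower from 2293 to 2842, higher than each tissue from 308 to 421, lower than each from 447 to 771, and higher and lower in female pools from 98 to 300 and from 338 to 493. In the last 2 fits a lone pool was assumed to vary like the others.

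Replicate numbers were not used to pair samples in the main fit. Of 32 pairs of same-numbered libraries of different tissues, 1 had deviations correlated above 0.1 (median r 0.00839, range -0.0235 to 0.131). Same-numbered colon and thymus libraries correlated at 0.0634 to 0.0781, and differently numbered ones at 0.000413 or less. Whether a number marks shared mice or a batch was not tested. With the replicate block 2341 genes were called higher, 2502 lower, 281 higher than each tissue and 496 lower than each. Trachea pools of 130 to 453 cells limit genes at low level: 755 of the genes called higher had no count in some pool.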
